A study of Mus musculus with 6 samples.

Results

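Kbtbd12 and 9 other genes of the Kelch-BTB and cullin-3 ubiquitin ligase system of striated muscle were followed in 6 mice. The 10 genes, of 20632 in the deposited table, were Kbtbd12, Kbtbd11, Kbtbd13, Klhl40, Klhl41, Klhl31, Klhl24, Klhl30, Klhl38 and Cul3. Kbtbd12 was chosen by its higher TMM-normalized CPM in the mutant mice, so its own difference is given as a description with no test. The other 9 were listed for their family and their place in muscle, and are read from a fit over the whole table.

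The study asked which transcripts change in skeletal muscle when Baf155, a core subunit of the SWI/SNF chromatin remodelling complex encoded by Smarcc1, is deleted in myofibers. Baf155 ΔMF mice (titled MT, genotype label Baf155 -/-, n = 3) carried floxed Baf155 alleles and MCK-Cre, and Baf155 WT mice (titled WT, genotype label wild type, n = 3) carried the floxed alleles without the Cre. All were unexercised males aged 3 months of a C57BL/6 background (C57BL/6J in the study's methods), and 1 library of total RNA was made per mouse from pooled whole hind limb muscles. The MCK promoter drives Cre in skeletal and cardiac muscle fibers and not in the blood, vessel or connective tissue cells of the same sample, and in whole muscle fewer cells of a type and less RNA per cell cannot be told apart. The titles carry a prefix, MS13 for WT mouse 1 and ΔMF mice 1 and 2, MS15 for WT mice 2 and 3, and MS14 for ΔMF mouse 3. The labels do not say what the prefix stands for. Outside MS13 it cannot be told apart from the genotype.

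Kelch-BTB proteins are substrate adaptors. The BTB domain binds cullin-3, the scaffold encoded by Cul3, and the Kelch repeats hold the protein that is to be ubiquitinated. In skeletal muscle several of them are known for the sarcomere: mutations of KLHL40, KLHL41 and KBTBD13 cause nemaline myopathy, in which rods of thin filament and Z-disc protein form in the fibers, and KLHL40 and KLHL41 are known to stabilise nebulin, so that not every member acts by degradation. The function of Kbtbd12 is far less well known.

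The start-site regions of 3 members are shown. Kbtbd12 and Klhl41 both hold a match to the MEF2 motif, the site of the myocyte enhancer factor 2 family. Klhl40 is shown beside them as a muscle adaptor with no such match. A link of the motif to the genotype differences was not tested. The regions are the 250 bases before the RefSeq transcription start, in GRCm38.p6, 5′ to 3′ on the strand of the gene. Capitals mark matches to an E-box (CANNTG, the motif of MyoD-type factors) or to the MEF2 motif. Kbtbd12 lies at chr6:88627430-88627679 on the minus strand, with the start inside the span that GENCODE gives the gene. Klhl41 lies at chr2:69669870-69670119 and Klhl40 at chr9:121777357-121777606, both on the plus strand.
Kbtbd12: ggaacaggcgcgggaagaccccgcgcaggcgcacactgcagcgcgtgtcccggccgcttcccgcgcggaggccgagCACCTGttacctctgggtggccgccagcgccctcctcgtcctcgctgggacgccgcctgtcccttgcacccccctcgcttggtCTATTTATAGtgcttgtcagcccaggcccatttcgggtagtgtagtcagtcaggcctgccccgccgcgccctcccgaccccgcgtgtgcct
Klhl41: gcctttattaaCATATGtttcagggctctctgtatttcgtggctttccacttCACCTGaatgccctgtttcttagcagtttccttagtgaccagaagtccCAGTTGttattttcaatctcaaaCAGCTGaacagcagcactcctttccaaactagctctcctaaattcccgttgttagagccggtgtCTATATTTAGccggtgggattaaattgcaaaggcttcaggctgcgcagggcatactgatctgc
Klhl40: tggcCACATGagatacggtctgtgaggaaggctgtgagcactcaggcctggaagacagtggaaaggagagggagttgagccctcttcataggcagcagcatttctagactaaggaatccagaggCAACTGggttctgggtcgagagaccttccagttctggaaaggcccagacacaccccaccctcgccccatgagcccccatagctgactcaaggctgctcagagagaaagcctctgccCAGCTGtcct

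RefSeq windows of 300 bases, from 250 before the start to 50 after it, were held for 6 of the 10 members. Both strands were searched for the E-box, the MEF2 motif, the CArG box, the STAT motif TTCNNNGAA and the hypoxia response core ACGTG, which can overlap the E-box. The Kbtbd12 window held 1 E-box, 174 bases before the start, and 1 MEF2 match, CTATTTATAG, 91 bases before it. The Klhl41 window held 4 E-boxes and the MEF2 match CTATATTTAG 63 bases before the start. The MEF2 motif stood in 2.64% of the 19307 windows of genes in the table and an E-box in 68.6%, so the E-box is common at this length and the MEF2 match is not. Kbtbd13 and Klhl40 each held 4 E-boxes, Cul3 held 2 copies of the hypoxia response core (21.2% of windows hold it), and Klhl31 held none of the 5 motifs. No member window held a CArG box (1.42% of windows) or the STAT motif (7.82%). The Kbtbd12 window was 69.7% G and C, against 46.3% for Klhl41, 57.3% for Klhl40, 72.3% for Cul3 and a median of 57.0% over all windows. A match is a description of the letters and not a shown binding site.

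The 6 libraries held 8426022 to 12469335 estimated counts. Levels are given as CPM, read counts scaled to the TMM-normalized library size. Smarcc1 stood at 17.0 to 23.4 CPM in the WT mice and at 6.54 to 7.72 CPM in the ΔMF mice, with a log2 fold change of -1.49 (SE 0.15), so the deleted gene followed the labels. The first principal component of log2 CPM, with 43.3% of the variance, placed WT mouse 1 at -13.4 beside the MS13 ΔMF mice (-17.1 and -15.4). It was away from WT mice 2 and 3 (24.98 and 22.5, MS15), and ΔMF mouse 3 (MS14) lay between at -1.56. WT mouse 1 thus stood apart from the other WT mice, and values within MS13 and without this mouse are given below where they differ. In the edgeR quasi-likelihood test with Benjamini-Hochberg adjustment over 12116 genes, 3 genes had an adjusted p under 0.05 (0.0248% of those tested). These were Smarcc1, Mfsd7b and Kbtbd12, and for Kbtbd12, selected on this same contrast, the call is no test.

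Kbtbd12 (ENSMUSG00000033182.12, chr6:88545114-88637950, minus strand, 3 coding transcripts in GENCODE) was about 2-fold higher in Baf155 ΔMF muscle. The WT mice had 443, 463 and 387 counts, or 43.0, 35.4 and 34.5 CPM. The ΔMF mice had 732, 808 and 599 counts, or 78.2, 83.9 and 70.0 CPM. The genotypes did not overlap. The lowest ΔMF mouse was 1.63 times the highest WT mouse, and among the WT mice WT mouse 1 was the highest. The means were 37.7 ± 4.68 CPM in WT and 77.4 ± 6.96 CPM in ΔMF (SD, n = 3 each), a log2 fold change of 1.04 (SE 0.11) and a fold of 2.06. These values chose the gene. Within MS13, 1 WT against 2 ΔMF mice, the log2 difference was 0.91, and with each mouse left out in turn it lay between 0.98 and 1.15. Among the 12116 genes tested it had the 16th highest log2 fold change, and 104 genes had a larger one in either direction. On either side of the limit on adjusted p stood Mfsd7b, just inside (log2 fold change -1.09), and Atf3, just outside (-0.94). No 50-base word of its transcripts was shared with another gene, and its estimates were whole numbers in all 6 mice.

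**Figure D1:**
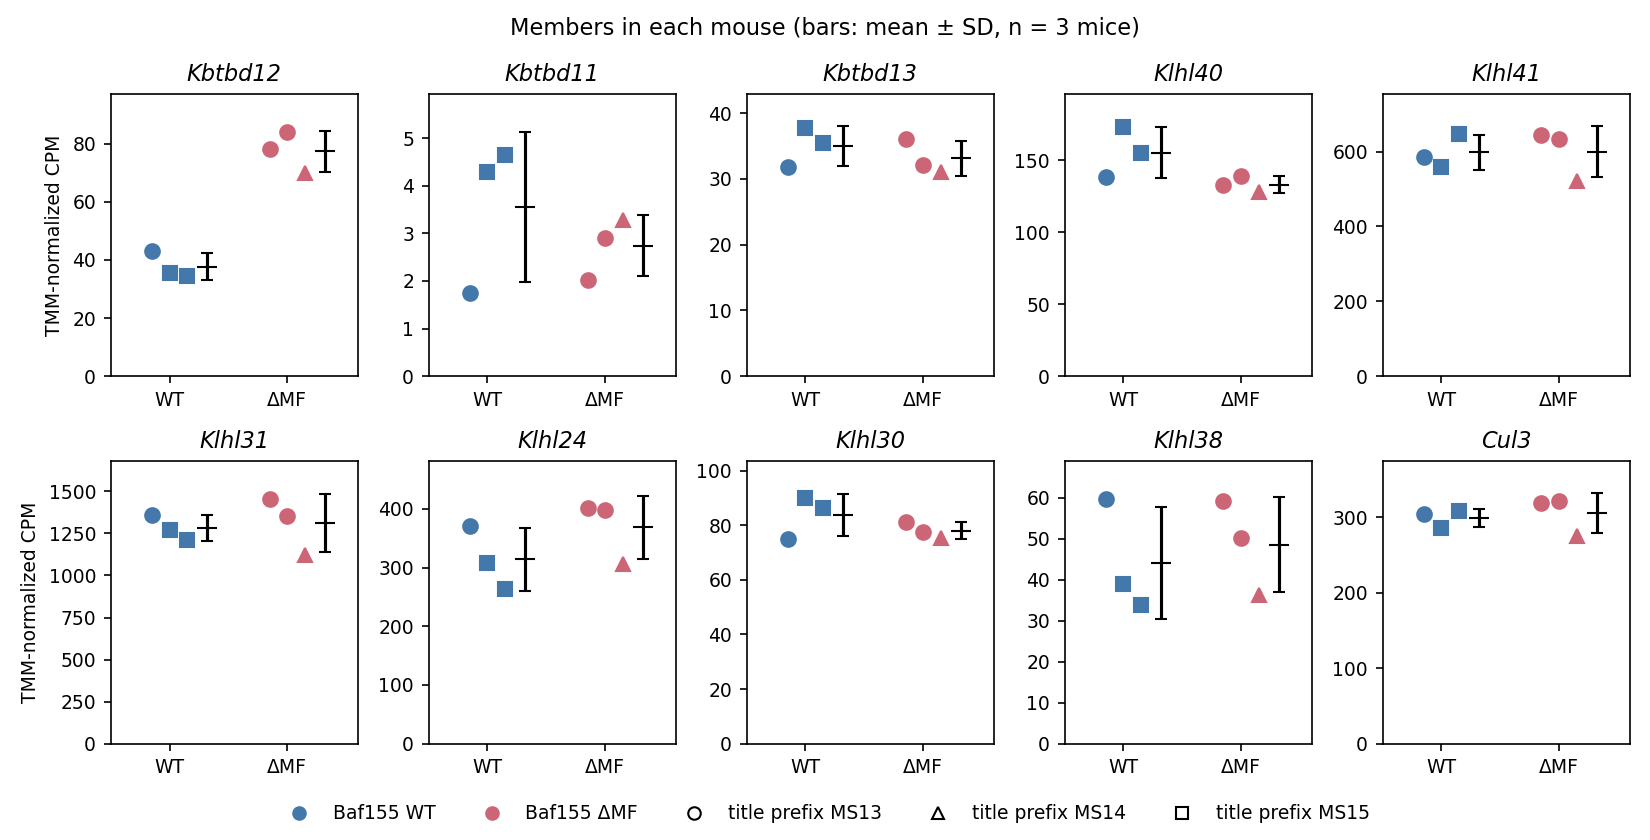
TMM-normalized CPM (vertical axes, each from 0) of the 10 members in each mouse, WT in blue and ΔMF in red, with the marker giving the title prefix and the black bars the mean ± SD of 3 mice. Kbtbd12 is the 1 panel in which the genotypes do not overlap, at 34.5 to 43.0 CPM against 70.0 to 83.9 CPM.

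None of the other 9 members had an adjusted p under 0.05, and in none of the 9 did the genotypes separate, where 10.8% of all genes tested did. Their log2 fold changes ran from -0.40 (Kbtbd11) to 0.23 (Klhl24), 5 above 0 and 4 below, with a median of 0.01 against -0.00 over all genes tested. By unadjusted p, 1 of the 9 was under 0.05 (Klhl40), where 7.95% of all genes were. Permuting the genotypes of 3 and 3 mice for 1 gene gives an exact p of 0.10 at the least, so the adjusted p-values below come from the edgeR fit.

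Among the nemaline myopathy adaptors, Klhl40 came nearest to a difference. It stood at 138, 173 and 155 CPM in the WT mice and at 133, 139 and 128 CPM in the ΔMF mice. The overlap was slight, since ΔMF mouse 2 was just above WT mouse 1 and the other WT mice were above every ΔMF mouse. The log2 fold change was -0.22 (SE 0.10, 95% interval -0.44 to -0.00054), with an unadjusted p of 0.0495 and an adjusted p of 0.622 in the edgeR test. Within MS13 the difference was -0.03, and without WT mouse 1 it was -0.30 with an adjusted p of 0.0580. The reading of Klhl40 therefore turned on which WT mice were compared. An antisense gene model, Gm47108, shares 17.5% of its 50-base words on the opposite strand.

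Klhl41, the close paralog of Klhl40, had 587, 558 and 648 CPM in the WT mice and 644, 633 and 522 CPM in the ΔMF mice. The highest mouse was a WT mouse and the lowest a ΔMF mouse, with the other 4 between them. Its log2 fold change was 0.01 (SE 0.11, 95% interval -0.24 to 0.25, edgeR adjusted p = 0.9896). It was the member with fractional read estimates in all 6 mice, and 3.47% of its 50-base words also occur in Ankrd17, so some of its reads were shared out by the authors' estimator.

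Kbtbd13, which binds actin and is linked to the speed of relaxation in muscle, had 31.8, 37.7 and 35.5 CPM in the WT mice and 36.1, 32.2 and 31.1 CPM in the ΔMF mice. The groups were interleaved. Its log2 fold change was -0.08 (SE 0.11, 95% interval -0.31 to 0.15, edgeR adjusted p = 0.833). Kbtbd13 and Kbtbd12 were neighbours in level per kb of exon. On that scale the ratio of Kbtbd12 to Kbtbd13 was 0.813, 0.563 and 0.583 in the WT mice and 1.30, 1.56 and 1.35 in the ΔMF mice. The rule that chose Kbtbd12 fixes the direction of this ratio, which is given as a description.

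Of the members outside the nemaline group, Klhl31 had the most counts. It is needed for normal skeletal muscle and is known to act on filamin-C. The WT mice had 1362, 1268 and 1213 CPM and the ΔMF mice 1457, 1354 and 1122 CPM, so ΔMF mice were both the highest and the lowest. The log2 fold change was 0.03 (SE 0.12, 95% interval -0.23 to 0.29, edgeR adjusted p = 0.941).

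Klhl24, an adaptor known for its action on intermediate filament proteins in skin and heart, had the highest log2 fold change of the 9. The WT mice had 371, 308 and 263 CPM and the ΔMF mice 401, 397 and 307 CPM. WT mouse 1 and the MS13 ΔMF mice were the high values and the rest the low ones, so the genotypes overlapped. Its log2 fold change was 0.23 (SE 0.14, 95% interval -0.08 to 0.55, edgeR adjusted p = 0.660) and 0.11 within MS13.

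Klhl38 and Klhl30 are muscle-enriched adaptors of less settled function. Klhl38 had 59.8, 38.9 and 33.8 CPM in the WT mice and 59.3, 50.2 and 36.3 CPM in the ΔMF mice. The MS13 mice of both genotypes were the 3 highest. Its log2 fold change was 0.14 (SE 0.21, 95% interval -0.32 to 0.61, edgeR adjusted p = 0.854) and changed sign to -0.13 within MS13. The antisense gene Gm15943 shares 62.6% of the 50-base words of Klhl38 on the opposite strand. The study's methods name a stranded library kit, but the sources do not state whether strand was used in the estimates. Klhl30 had 74.9, 89.9 and 86.5 CPM in the WT mice and 81.4, 77.4 and 75.4 CPM in the ΔMF mice. WT mouse 1 was the lowest of the 6. Its log2 fold change was -0.10 (SE 0.09, 95% interval -0.31 to 0.11, edgeR adjusted p = 0.754), and it was 0.08 within MS13.

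Kbtbd11 was the least abundant member and the least well measured. It had 18, 56 and 52 counts in the WT mice and 19, 28 and 28 counts in the ΔMF mice, or 1.75, 4.28 and 4.64 CPM and 2.03, 2.91 and 3.27 CPM. WT mouse 1 was the lowest of all and the other WT mice the highest. The log2 fold change was -0.40 (SE 0.34, edgeR adjusted p = 0.735), with a 95% interval of -1.15 to 0.35, and within MS13 it was 0.43. All 3 MS13 mice lay below the other 3 mice, and the sign turned on which mice were compared. Neither direction could be read for Kbtbd11. The gene model Gm37844 shares 24.9% of its 50-base words on the opposite strand.

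Cul3, which encodes the cullin-3 scaffold, had the smallest relative spread of the members among the WT mice (coefficient of variation 4.10%). Among the ΔMF mice its coefficient was 8.66% and not the smallest, since that of Klhl30 was 3.88%. Cul3 had 304, 285 and 308 CPM in WT and 319, 322 and 275 CPM in ΔMF. The ΔMF mice were both the highest and the lowest. Between the genotypes the log2 fold change was 0.03 (SE 0.10, 95% interval -0.19 to 0.24, edgeR adjusted p = 0.938).

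**Figure D2:**
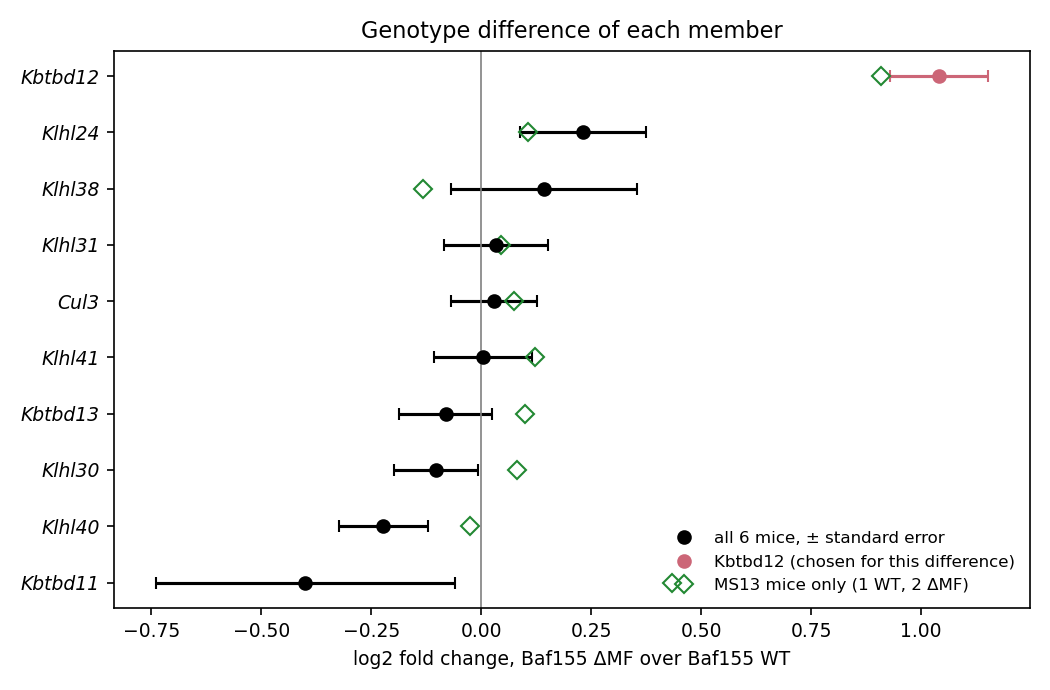
Log2 fold change of each member, ΔMF over WT (horizontal axis), as a filled point with its standard error over all 6 mice and as an open diamond for the MS13 mice alone. Kbtbd12, chosen for this difference, lies at 1.04 (0.91 within MS13), while the other members lie between -0.40 and 0.23 and Kbtbd11, Kbtbd13, Klhl30 and Klhl38 change side within MS13.

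Some members were ordered by the title prefix. In 4 of the 9 members other than Kbtbd12 the 3 MS13 mice, 1 WT and 2 ΔMF, did not overlap the other 3 mice, where 27.4% of all genes tested separated in this way, so a split by prefix was common over the whole table and is not particular to the members. Klhl38 was at 56.4 CPM on average in the MS13 mice and at 36.3 CPM in the others, a ratio of 1.55. Klhl24 was at 390 against 292 CPM, a ratio of 1.33, and Klhl31 at 1391 against 1201 CPM, a ratio of 1.16. Kbtbd11 went the other way, with 2.23 CPM in the MS13 mice and 4.07 CPM in the others. Kbtbd12 did not separate by prefix, since WT mouse 1 (43.0 CPM) was below ΔMF mouse 3 (70.0 CPM). With the prefix as a covariate the log2 fold change of Kbtbd12 was 0.91 (SE 0.11), Klhl38 moved to -0.13 (SE 0.13), Kbtbd11 to 0.50 (SE 0.39) and Klhl40 to -0.02 (SE 0.11). Only MS13 holds both genotypes, so these estimates rest on 1 WT and 2 ΔMF mice and repeat the contrast within MS13.

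Leaving out WT mouse 1 changed the counts of calls most. Without it 955 of 12288 genes had an edgeR adjusted p under 0.05 (7.77%), and 2923 an unadjusted p under 0.05 (23.8%). None of the 9 members was among the 955. Klhl40 (log2 fold change -0.30, edgeR adjusted p = 0.0580), Klhl24 (0.37, adjusted p = 0.0798), Kbtbd11 (-0.70, adjusted p = 0.0904) and Klhl38 (0.42, adjusted p = 0.121) had an unadjusted p under 0.05. In that comparison ΔMF is set against the MS15 mice alone, so genotype and prefix move together.

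Levels were compared between members per kb of exon, as CPM per kb of the joined exons of the coding transcripts. The family was dominated by Klhl41 and Klhl31, and Kbtbd12 was near the bottom of the order in WT. Klhl41 averaged 236 ± 18.0 CPM per kb in WT and 237 ± 26.6 in ΔMF (SD, n = 3 each). Klhl31 averaged 197 and 202 CPM per kb, Cul3 63.6 and 64.9, and Klhl40 65.5 and 56.2. Below these came Klhl24 with 37.8 and 44.4 CPM per kb, Klhl30 with 27.1 and 25.3, Klhl38 with 19.97 and 21.95, and Kbtbd13 with 11.8 and 11.2. Kbtbd12 averaged 7.61 ± 0.945 CPM per kb in WT and 15.6 ± 1.41 in ΔMF, and Kbtbd11 was last with 0.510 and 0.392.

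Of the 9 neighbouring pairs in this order, 6 differed in a two-sided exact sign-flip permutation test over the 6 mice, each with the higher gene above in 6 of 6 mice (Benjamini-Hochberg adjusted p = 0.0469, from the smallest p that 6 mice allow, 0.0312). Kbtbd12 over Kbtbd11 (25.6-fold) is 1 of the 6 and, like Kbtbd13 and Kbtbd12 below, is a description only. The adjustment ran over all 9 pairs, those with Kbtbd12 among them. Klhl41 exceeded Klhl31 by 1.19-fold in this test, Klhl31 exceeded Cul3 by 3.10-fold and Klhl40 exceeded Klhl24 by 1.49-fold. The first and the last of these rested on the length used. Per kb of coding sequence Klhl31 was 2.07 times Klhl41 and Klhl24 was 2.43 times Klhl40, each in 6 of 6 mice, while Klhl31 stayed above Cul3 (5.18-fold). Klhl38 exceeded Kbtbd13 by 1.78-fold in 6 of 6 mice per kb of exon. Per kb of coding sequence Klhl38 over Kbtbd13 was 1.05-fold, with Klhl38 above in 3 of 6 mice. Cul3 and Klhl40 did not separate (1.06-fold, 5 of 6 mice, exact adjusted p = 0.387), nor did Klhl30 and Klhl38 (1.28-fold, 4 of 6 mice, exact adjusted p = 0.241). Kbtbd13 was above Kbtbd12 in the 3 WT mice and below it in the 3 ΔMF mice, which is given as a description since the values of Kbtbd12 chose the gene. In WT alone Kbtbd12 was at rank 9 of 10 and in ΔMF at rank 8.

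**Figure D3:**
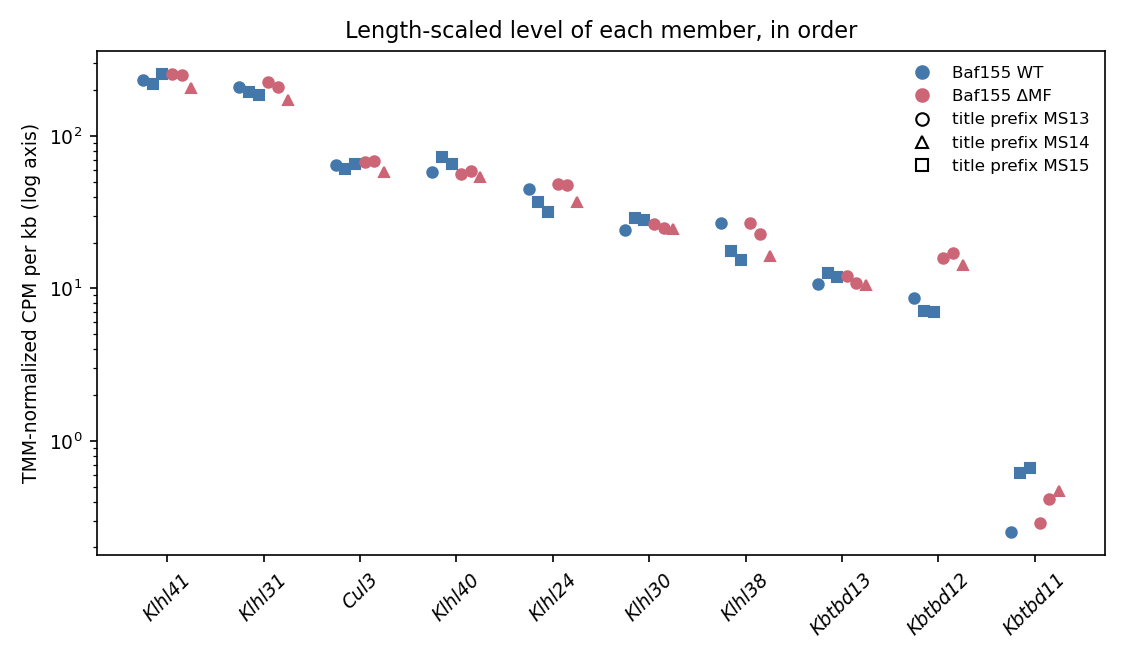
TMM-normalized CPM per kb of exon (log axis) of the 10 members in each of the 6 mice, ordered by their mean, WT in blue and ΔMF in red, with the marker giving the title prefix. Klhl41 and Klhl31 lie at 173 to 256, most members keep their place in both genotypes, and Kbtbd12 moves from below Kbtbd13 (6.98 to 8.70) to above it (14.2 to 17.0).

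As shares of the summed length-scaled level of the 9 adaptors, Klhl41 and Klhl31 together made up 71.8%, 70.1% and 73.5% in the WT mice and 72.1%, 71.6% and 70.8% in the ΔMF mice. Kbtbd12 made up 1.41%, 1.21% and 1.16% in WT and 2.38%, 2.64% and 2.64% in ΔMF. Even at its ΔMF level Kbtbd12 was thus a small part of the adaptor transcripts of muscle. Set among 50 Kelch-BTB genes with an exon length, which added 41 that were not members, Klhl41, Klhl31 and Klhl40 held ranks 1 to 3, and Klhl24, Klhl30, Klhl38, Kbtbd13 and Kbtbd11 ranks 5, 8, 10, 14 and 42 by their mean over all mice. Kbtbd12 was at rank 18 by its WT mean and at rank 11 by its ΔMF mean. The highest genes that were not members were Klhl9 (42.1 CPM per kb over all mice), Ivns1abp (35.5) and Klhl21 (33.2). The 9 member adaptors carried 67.7% to 71.5% of the summed length-scaled level of the family in every mouse. Cul3 transcripts stood at 10.2% to 10.9% of the sum of the 9 adaptors, a narrow range that the genotypes shared.

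Likeness to the profile of Kbtbd12 is given as a description, since that profile chose the gene. It was measured as the root-mean-square difference of log2 CPM, each gene centred on its own mean over the 6 mice. Klhl24 was the nearest member, at 0.412 and rank 767 of the 12115 other genes tested, and Kbtbd11 the farthest, at 0.868 and rank 11647. The 5 genes nearest to Kbtbd12 were Pclo (0.162), H60b (0.177), Adamts13 (0.181), Cyyr1 (0.189) and Gm10408 (0.198). Pclo had 8 to 19 counts a mouse, H60b 5 to 13 and Gm10408 5 to 16, so their profiles carry large counting errors. Adamts13, with 68 to 144 counts, was the best measured of the 5, at 9.33, 8.26 and 6.07 CPM in the WT mice and 12.9, 14.95 and 12.5 CPM in the ΔMF mice.

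The rest of the Kelch-BTB family and the cullin machinery gave no call. Of 42 further Kelch-BTB genes 35 were tested, 0 had an edgeR adjusted p under 0.05 and 2 an unadjusted p under 0.05 (Klhl33 and Ipp), where 7.95% of all genes did. Of the 35, 24 were above 0 with a median log2 fold change of 0.09, where 6033 of the 12116 genes tested were above 0. Klhl1, Klhl14 and Kbtbd6 were at 0 counts in all 6 mice. The highest log2 fold changes were those of Klhl4 (0.67, SE 0.32, edgeR adjusted p = 0.622) and Klhl33 (0.36, SE 0.15, edgeR adjusted p = 0.601), and the lowest those of Enc1 (-0.31) and Klhl13 (-0.18). Klhl11 and Ipp were the 2 in which the genotypes did not overlap, both higher in ΔMF with a log2 fold change of 0.28, where 10.8% of all genes tested did not overlap. Klhl33 and Klhl34 passed the threshold without WT mouse 1 (edgeR adjusted p = 0.00995 and 0.0257), with differences of 0.06 and -0.02 within MS13.

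The 23 genes that neddylate, exchange and recycle cullin-RING ligases were all tested and 0 had an edgeR adjusted p, or an unadjusted p, under 0.05. Their median log2 fold change was 0.02. In 3 of the 23, all higher in ΔMF, the genotypes did not overlap, against 10.8% of all genes tested. The extremes were Cand2, the muscle-enriched cullin exchange factor (0.25), and Cops7b (0.17) on one side, and the NEDD8 conjugating enzyme gene Ube2m (-0.20) and Nedd8 itself (-0.18) on the other. Without WT mouse 1 Cand2 passed the threshold (log2 fold change 0.40, edgeR adjusted p = 0.0169), while within MS13 its difference was 0.00. The other 7 cullins gave 0 calls with a median of 0.05, from Cul4a (-0.03) and Cul2 (0.03) to Cul9 (0.15) and Cul4b (0.29). Without WT mouse 1 Cul4b passed the threshold (log2 fold change 0.46, edgeR adjusted p = 0.0388), with a difference of 0.08 within MS13.

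Thin filament genes and known partners of the adaptors were examined because nebulin and leiomodin-3 are stabilised by KLHL40 and filamin-C is a target of KLHL31. All 13 were tested and 0 had an edgeR adjusted p under 0.05, with 1 unadjusted p under 0.05 (Myo18b, against 7.95% of all genes tested) and a median log2 fold change of 0.03. Lmod3, which encodes leiomodin-3, had 108, 105 and 115 CPM in the WT mice and 112, 108 and 111 CPM in the ΔMF mice, nearly equal throughout. Neb, which encodes nebulin, had a log2 fold change of 0.35 (SE 0.19, edgeR adjusted p = 0.630) and Myo18b of 0.31 (SE 0.12, edgeR adjusted p = 0.601), while Tnnt3 (-0.19) and Acta1 (-0.17) were the lowest. Neb followed the prefix as well, with 16495 CPM in WT mouse 1 against 11141 and 10103 in the other WT mice, and its difference within MS13 was 0.06. Without WT mouse 1, 4 of the 13 passed the threshold, where 7.77% of all genes did. These were Neb, Myo18b, Nrap and Flnc, with log2 fold changes of 0.60, 0.46, 0.48 and 0.47. Within MS13 the differences of these 4 were 0.06, 0.09, 0.04 and -0.10. The other genes of the list, Lmod3 among them, did not pass. Without WT mouse 1 genotype and prefix move together.

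**Figure D4:**
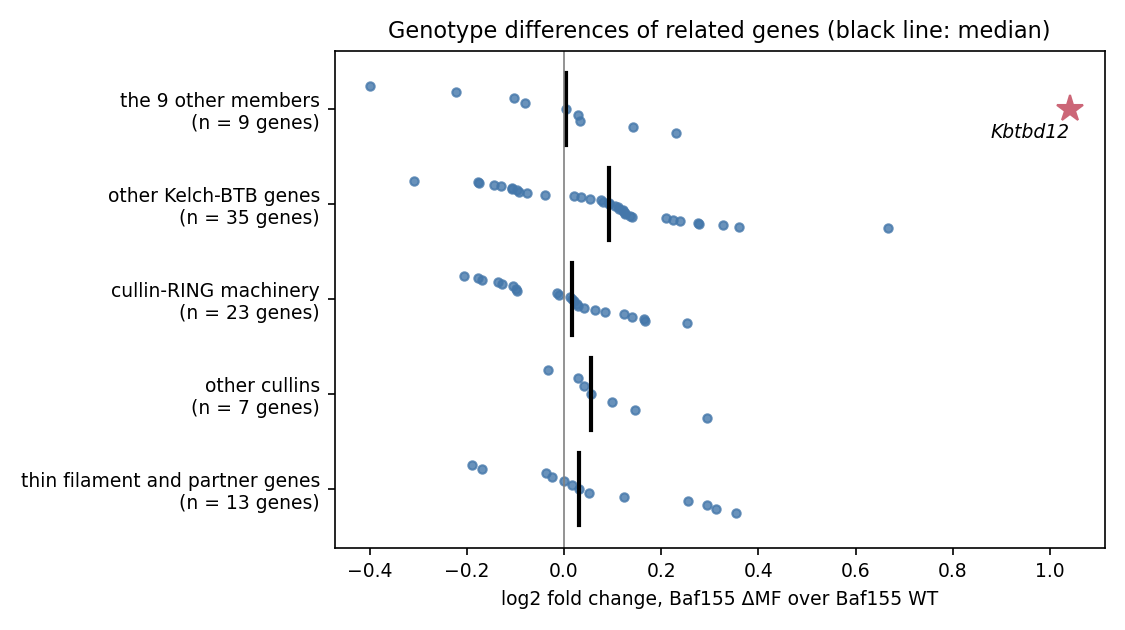
Log2 fold change, ΔMF over WT (horizontal axis), of each tested gene in the 9 other members and 4 related lists, 1 point per gene, with a black line at the list median and a star for Kbtbd12. The medians lie between 0.01 and 0.09, and the gene nearest to Kbtbd12 at 1.04 is Klhl4 at 0.67.

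No gene around Kbtbd12 on chromosome 6 was called. Within 1000 kb of the gene 21 genes were tested, 0 had an edgeR adjusted p under 0.05, 5 had an unadjusted p under 0.05 (7.95% of all genes tested), and in 4 the genotypes did not overlap (10.8% of all genes tested). Their log2 fold changes had a median of -0.03 and ran from -0.64 (Chchd6) to 0.49 (Gata2). The nearest tested genes on the side of lower coordinates were Sec61a1 (-0.29, SE 0.11), Ruvbl1 (-0.04) and Eefsec (-0.35), and on the other side Mgll (0.19, SE 0.13), Abtb1 (-0.02) and Podxl2 (0.01). Sec61a1, 26.2 kb from Kbtbd12, was lower in every ΔMF mouse (24.8, 25.02 and 27.2 CPM) than in any WT mouse (27.8, 32.7 and 33.6 CPM), with an edgeR adjusted p of 0.601.

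**Figure D5:**
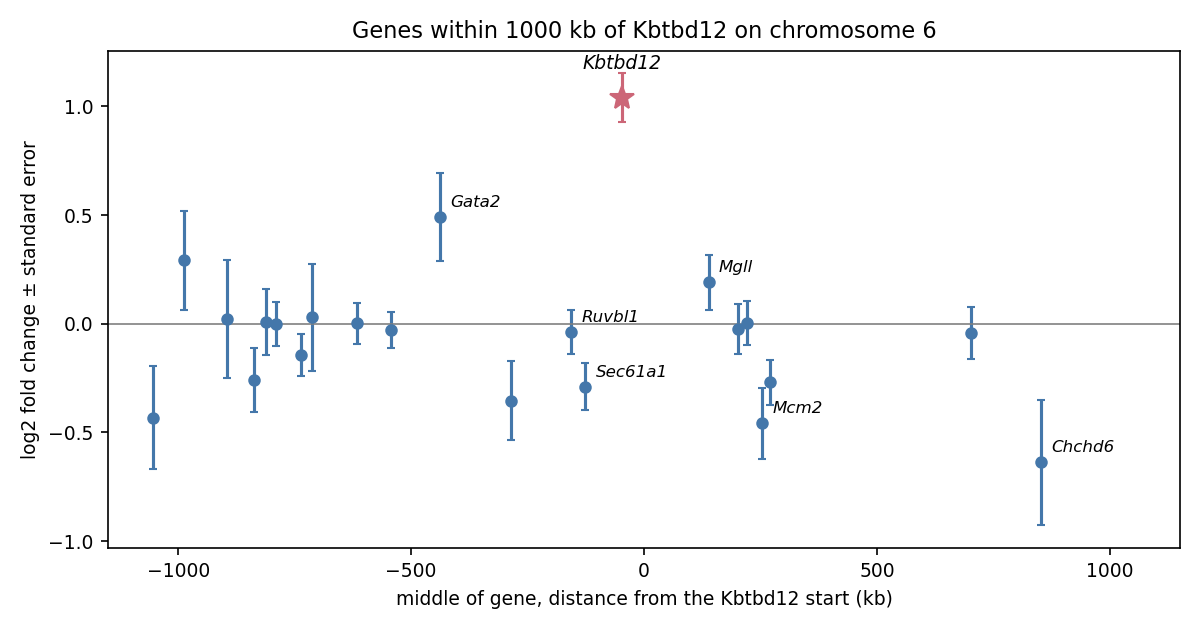
Log2 fold change, ΔMF over WT, with its standard error (vertical axis) for the 21 tested genes within 1000 kb of Kbtbd12, against the distance of the middle of each gene from the Kbtbd12 start in kb (horizontal axis, positive toward higher coordinates). Kbtbd12 lies at 1.04, and its neighbours lie between -0.64 (Chchd6) and 0.49 (Gata2).

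The samples were muscle by their defining transcripts, with the 8 myofiber markers summing to 181869 to 215196 CPM in WT and 191410 to 216377 CPM in ΔMF, none called. Ttn alone had 81290, 47541 and 37561 CPM in the WT mice and 85257, 75257 and 62959 CPM in the ΔMF mice, so this very long transcript was high in the MS13 mice of both genotypes. Slow fiber genes (0 of 8 called, median -0.01, from Tnni1 at -0.16 and Myl2 at -0.14 to Atp2a2 at 0.08 and Myh7 at 0.23) and fast fiber genes (0 of 9, median -0.09, from Pvalb at -0.25 and Tnni2 at -0.22 to Atp2a1 at 0.09 and Myh1 at 0.49) gave no call. Without WT mouse 1 Myh1 (0.63, edgeR adjusted p = 0.00789) and Pvalb (-0.38, edgeR adjusted p = 0.0441) passed the threshold, where 7.77% of all genes did. In that comparison genotype and prefix move together. Within MS13 the differences of Myh1 and Pvalb were 0.28 and 0.06. Over all 6 mice Myh1 was the 1 fast fiber gene in which the genotypes did not overlap, higher in ΔMF, against 10.8% of all genes tested. Among other cell types, all 10 macrophage and leukocyte markers were below 0, at a median log2 fold change of -0.90. Each had an unadjusted edgeR p under 0.05, where 7.95% of all genes tested did, and none an adjusted p under 0.05. In none of the 10 did the genotypes separate, where 10.8% of all genes tested did. The summed level of these markers was 142 to 415 CPM in WT and 129 to 216 CPM in ΔMF, with 142 CPM in WT mouse 1. Within MS13 the median difference of the 10 was -0.15, with 8 of 10 below 0. Their part in the differences of Kbtbd12 and the other members was not tested.

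For the remaining cell types 0 markers were called. The 6 endothelial markers were all above 0 (median 0.29, sums of 221 to 288 CPM in WT and 290 to 316 CPM in ΔMF), the 4 adipocyte markers all below (-0.46, 32.3 to 65.6 and 28.2 to 42.1 CPM) and the 5 erythroid markers all below (-0.70, 622 to 1227 and 371 to 805 CPM). Within MS13 the median difference was 0.04 for the endothelial markers (4 of 6 above 0), -0.14 for the adipocyte markers (3 of 4 below 0) and -0.85 for the erythroid markers (5 of 5 below 0). The endothelial sums did not overlap between the genotypes, but only just, with 288 CPM in WT mouse 1 and 290 CPM in the lowest ΔMF mouse. The part of these markers in the difference of Kbtbd12 was not tested. Fibro-adipogenic markers had a median of -0.30, with satellite cell (-0.03), smooth muscle (-0.04) and Schwann cell (0.10) markers near 0. The 4 cardiac markers summed to 1.52 to 4.08 CPM in WT and 2.69 to 3.10 CPM in ΔMF.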

How the data were processed

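RNA sequencing was done on hind limb muscle of 6 mice, 1 library each. The deposited table holds 1 row per gene and 1 column per mouse of estimated counts per gene, not normalized by the authors. A further column, the sum over the 6 mice, was not used. The submitters' processing notes name CASAVA 1.8.2, cutadapt 1.10, Bowtie2 2.2.7, TopHat2 2.1.1, RSEM 1.2.30 and limma, and the builds mm10 and GRCm38. The annotation is not given in the sources used here. In 14.1% of the 20632 genes at least 1 estimate was fractional, and estimates were rounded to whole numbers.

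Totals were 8426022 to 12469335 counts. A count of 0 allows up to 3 counts, or 0.241 to 0.356 CPM, and covers counting error only. Genes passing filterByExpr (minimum count 10, total 15), 12116 in all, were tested with edgeR 4.0.16 in R 4.3.3 (TMM, quasi-likelihood F test, Benjamini-Hochberg over all genes, adjusted p under 0.05). Mean and SD are of TMM-normalized CPM, and log2 CPM used a prior count of 2. The code was tested on simulated data. In every pair of mice at least 97.5% of the tested genes had different counts, so no pair of libraries was a repeat. The mice are separate animals. Positions, exon lengths and shared 50-base words came from GRCm38 and GENCODE M21, and promoter windows from RefSeq (GRCm38.p6). Exact tests used scipy 1.17.1. Named genes are the members, Smarcc1, the 5 genes most like Kbtbd12, its 3 nearest tested genes on each side, and from each list the genes called and the 2 highest and 2 lowest log2 fold changes; other names were chosen after their values were seen. Members and lists were chosen with earlier results of these data known. Alternatives were other scalings and filters, DESeq2 1.42.0, limma-voom (limma 3.58.1), the title prefix as a covariate and each mouse left out.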

Additional observations from a re-analysis of the deposited data

How the results depend on the processing

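The log2 fold change of Kbtbd12 kept its direction under 14 alternatives, from 0.91 to 1.15. All of them reuse the values that chose the gene, so this is a description. Its adjusted p, no test here, was above 0.05, up to 0.0730, in edgeR without WT replicate 2, MT replicate 1 or MT replicate 2. Of the other 9 members 0 were called under any alternative. The number of genes called over the whole table was less stable: 3 in the reported fit, 17 with no filter on low counts, 22 with DESeq2, 5 with limma-voom, 16 with the title prefix as a covariate, 8 at an adjusted p under 0.1, and 0 to 955 with each mouse left out (955 without WT replicate 1; 0 in edgeR without WT replicate 2 or without MT replicate 2, where 451 and 568 genes had an unadjusted p under 0.05; 7 without WT replicate 3; 1 without MT replicate 1). With each mouse left out the calls were 0 to 2 among the other Kelch-BTB genes, 0 to 1 in the cullin-RING machinery and 0 to 4 among the thin filament genes, the highest each time without WT replicate 1.

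Of 126 member values 107 kept their direction and 19 reversed, none of them a called value. With the prefix as a covariate, which leaves the contrast within MS13, the log2 fold changes became 0.50 for Kbtbd11, 0.10 for Kbtbd13, 0.083 for Klhl30 and -0.13 for Klhl38. With upper-quartile scaling Klhl41 became -0.0099, and with library size only, which moves the median of all genes by -0.06, Klhl41 became -0.061, Klhl31 -0.031 and Cul3 -0.035. With each mouse left out Klhl41 lay between -0.048 and 0.099, Klhl31 between -0.048 and 0.14, Klhl38 between -0.025 and 0.42 and Cul3 between -0.010 and 0.10. The cause was not tested. In the order of length-scaled levels, 6 of the 9 neighbouring pairs kept their direction with coding length (Klhl41 over Klhl31, Klhl40 over Klhl24 and Kbtbd13 over Kbtbd12 reversed, to 0.484, 0.411 and 0.862), 9 with library size only, 8 to 9 with each mouse left out, and 8 with the longest coding transcript, in WT mice only or in MT mice only, the last 3 chosen after seeing the data. With coding length Klhl38 over Kbtbd13 kept its direction in the mean only, at 1.05-fold with 3 of 6 mice. The exact test of the order cannot reach the threshold with 5 mice. No paired analysis was possible because the title numbers repeat within a genotype and the labels do not say that they mark a shared animal, litter or day. Kbtbd11 was low, with 18 to 56 counts a mouse, and its direction also turned on the prefix.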
